A study of Homo sapiens with 7 samples.

Results

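The genes that write and remove N6-methyladenosine (m6A) on mRNA were examined in sorted β-like cells after induction of a short hairpin RNA (shRNA) against one of them, METTL14. The members were 10 genes listed by role and matched by symbol to the 66025 Ensembl gene IDs of the count table, and all 10 were found. They were the catalytic pair METTL14 and METTL3, the adaptors WTAP, VIRMA, ZC3H13, RBM15, RBM15B and CBLL1, and the erasers FTO and ALKBH5. RNA-seq was done on insulin-expressing cells obtained at the end of an in vitro differentiation of H1, an established human embryonic stem cell line, and sorted with a zinc-binding dye. The 7 libraries formed 3 groups. In iKD2 Dox+ (a, b and c, n = 3) H1 cells with an integrated, doxycycline (Dox)-inducible METTL14 shRNA were differentiated with Dox. In iKD2 Dox- (b and c, n = 2) the same line had no Dox, and in iSCR Dox+ (a and b, n = 2) a line with a non-targeting hairpin received Dox. Both lines were made with lentivirus and puromycin selection, so that each group rests on 1 engineered line. Separate cultures for the libraries could not be checked in the data, and p-values below measure the spread between these libraries. Where values are listed for a group, they follow the letters of its libraries.

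As background, m6A is the most common internal modification of mRNA and is placed in the nucleus by a complex of several proteins. METTL3 is the methyltransferase that transfers the methyl group from S-adenosylmethionine, and METTL14 is its partner, which resembles it in fold, has no catalytic activity of its own and helps to bind the RNA. Adaptor proteins bring the pair to nuclear speckles and to chosen transcripts. FTO and ALKBH5 are dioxygenases that take the methyl group off again, and reader proteins such as the YTH family recognise it. In β-cells the mark has been tied to the mRNAs of insulin secretion and of β-cell identity.

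The 2 subunits of the catalytic pair differ at the motif that in active methyltransferases of this family holds the methyl donor. The codons of this stretch are shown because they separate the enzyme from the partner that the hairpin targets. Capitals mark the 4 codons of the motif, DPPW in METTL3 and EPPL in METTL14, with 9 coding bases on either side, from the transcripts of GENCODE 29 on GRCh38.
METTL3: gtgatggctGACCCACCCTGGgatattcac
METTL14: attcttctgGAACCCCCTTTAgaagaatat
The METTL3 codons lay at chr14:21500605-21500616 on the minus strand, in exon 6 of 11, and encoded residues 395 to 398 of 580. The METTL14 codons lay at chr4:118697252-118697263 on the plus strand, in exon 7 of 11, and encoded residues 192 to 195 of 456. Each motif occurred 1 time in its protein. The transcripts of the 2 genes shared 0 stretches of 31 bases on the same strand. Same-strand reads of one could thus not be assigned to the other by identity over that length. Reverse complements are not covered by this count.

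Total estimated counts were between 14875429 and 20639156 per library, and the 10 members had between 117 and 4683 counts each. INS was at 11625, 13581 and 11365 CPM (counts scaled by library size with the TMM method) in iKD2 Dox+, at 17393 and 14630 CPM in iKD2 Dox- and at 22298 and 21507 CPM in iSCR Dox+, so that the induced libraries were the 3 lowest. The sum of 8 β-cell markers, most of it INS and CHGA, was likewise lowest there, at 24732 to 28747 CPM against 32905 to 39258 CPM in the 4 controls. CHGA and PDX1 were also lowest in the 3 induced libraries, but IAPP, NKX6-1, MAFA, PCSK1 and SLC30A8 overlapped with the controls. PCSK1, for example, was at 50.4, 94.8 and 72.7 CPM in iKD2 Dox+ and at 49.4 and 40.3 CPM in iSCR Dox+. MAFA, a marker of mature β-cells, was at 0 in 1 library and at most 38.2 CPM. The alpha cell gene GCG was at 5039 to 12846 CPM and the delta cell gene SST at 1988 to 3904 CPM, so that the libraries held hormone transcripts of other islet cell types beside INS. The sums of 4 ductal markers were 809, 943 and 889 CPM in iKD2 Dox+, 544 and 419 CPM in iKD2 Dox- and 557 and 477 CPM in iSCR Dox+. Of these markers KRT19 and SOX9 were higher in each induced library than in any control, while KRT7 and CFTR overlapped with the controls. No test of these β-cell and ductal markers is given here. Groups did not overlap for 20.3% of genes tested between iKD2 Dox+ and iKD2 Dox-, and for 20.6% between iKD2 Dox+ and iSCR Dox+. The share that separates from all 4 controls together is not given. The part of the ductal and β-cell markers in the values below was not tested. In bulk RNA a lower share of cells expressing a gene and less RNA per cell cannot be told apart. The library iSCR Dox+ a had the fewest genes with a count (19570). It held the lowest level of the 7 for VIRMA, ZC3H13, FTO and ALKBH5, 4 of the 10 members. The same library was the lowest for 16.6% of the 22926 genes tested. It was also the highest for 18.1% of them, and for 0 of the members.

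The gene targeted by the hairpin was taken first. METTL14 (ENSG00000145388, chromosome 4, 118685368 to 118715433, plus strand) stood at 18.7 CPM in iKD2 Dox+ a, at 16.3 CPM in b and at 49.1 CPM in c. Its level was 39.4 CPM in iKD2 Dox- b and 22.6 CPM in c, against 36.1 CPM in iSCR Dox+ a and 32.2 CPM in b. Libraries a and b of iKD2 Dox+ were the 2 lowest of the 7, and the library labelled iKD2 Dox+ c was the highest, so that the groups overlapped. Counting error was much smaller than this gap, since the counts were 312 (95% Poisson interval 278 to 349), 262 (231 to 296) and 858 (802 to 917) in a, b and c. The log2 fold change against iKD2 Dox- was -0.14 (SE 0.63), with an interval that runs from 0.366-fold to 2.24-fold (edgeR quasi-likelihood test, adjusted p = 1). Against iSCR Dox+ it was -0.28 (SE 0.63), with an interval from -1.59 to 1.02 (adjusted p = 0.963). When the library labelled iKD2 Dox+ c was left out, these became -0.83 and -0.97, with adjusted p-values of 1 and 0.781. They became 0.077 and -0.062 without iKD2 Dox+ a, and 0.13 and -0.015 without iKD2 Dox+ b. Leaving out iKD2 Dox- b changed the first to 0.30, and leaving out iKD2 Dox- c changed it to -0.49. Each direction given below for iKD2 Dox+ includes that library. The hairpin acts on the mRNA, but its target position was not used here.

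**Figure D1:**
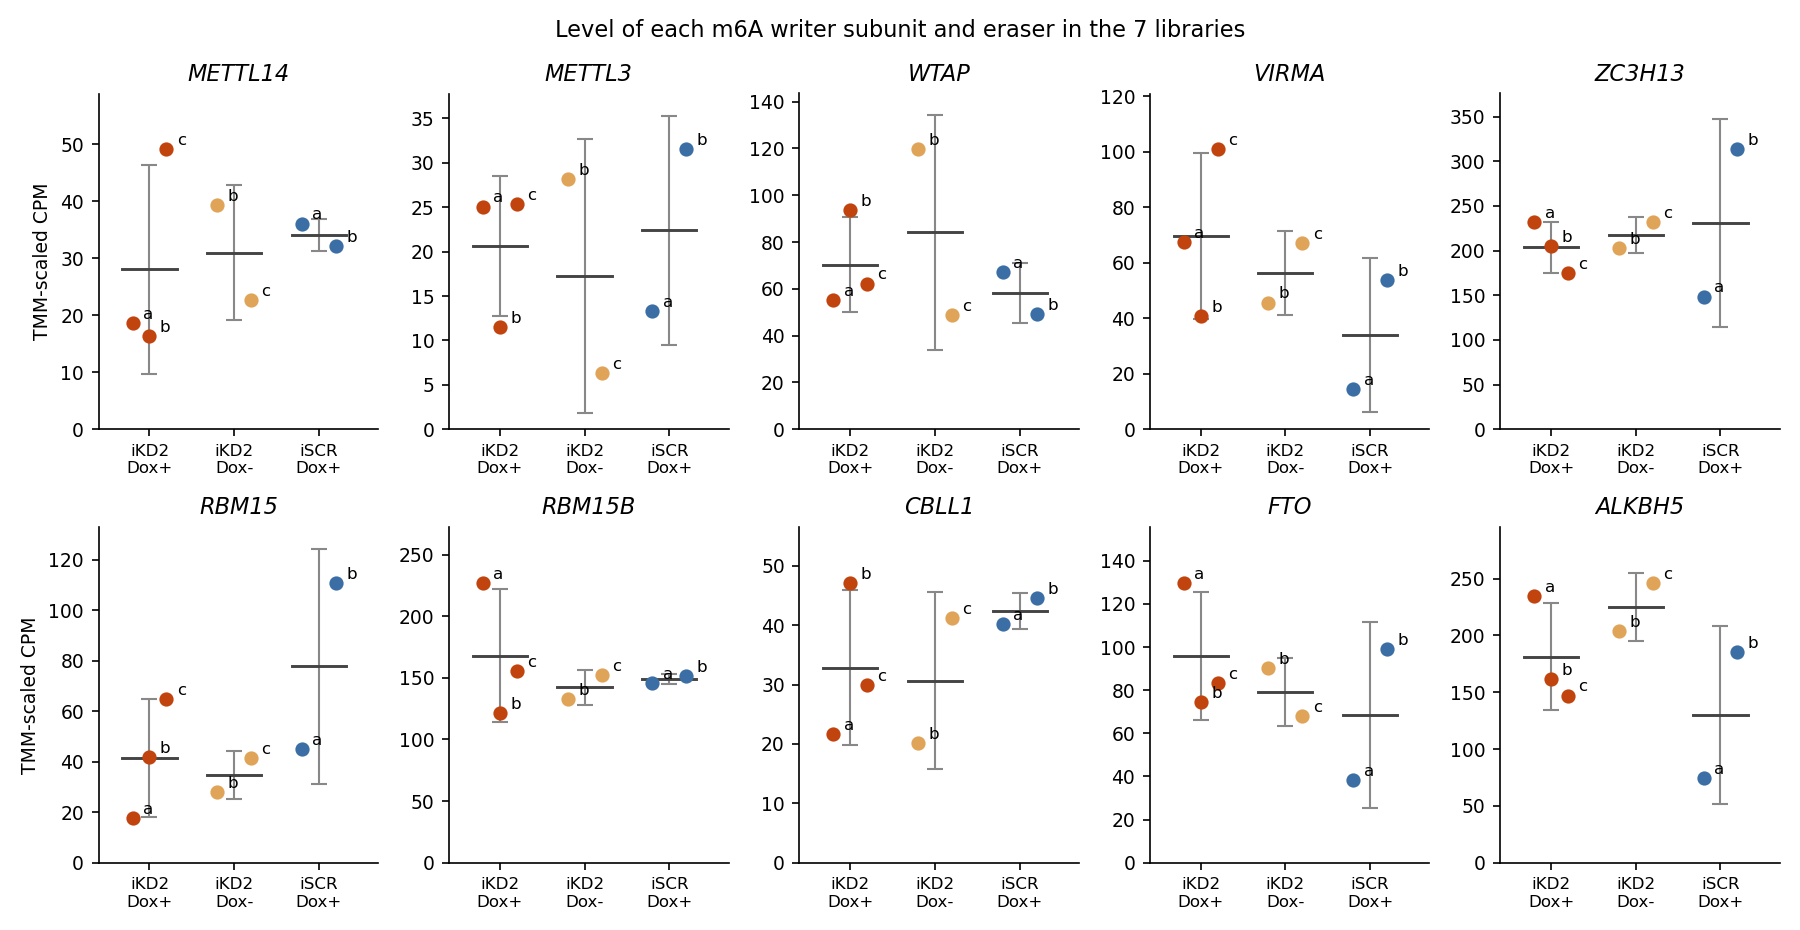
TMM-scaled CPM (vertical axis, linear from 0) of the 10 members in each library, with 1 panel per gene. Points are libraries with their letter, horizontal lines are group means and bars are ± 1 SD (n = 3, 2 and 2). METTL14 is lowest in iKD2 Dox+ b (16.3 CPM) and highest in the library labelled iKD2 Dox+ c (49.1 CPM), and VIRMA, ZC3H13, FTO and ALKBH5 are lowest in iSCR Dox+ a.

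METTL3 (ENSG00000165819, chromosome 14, 21498133 to 21511375, minus strand), the catalytic subunit, was the least abundant member in CPM, with a mean of 20.2 ± 9.63 CPM (SD, n = 7). It was at 25.1, 11.5 and 25.3 CPM in the iKD2 Dox+ libraries, at 28.2 and 6.37 CPM in the iKD2 Dox- pair, and at 13.3 and 31.5 CPM in the iSCR Dox+ pair. Both control groups held 1 high and 1 low library, and the 4.43-fold gap between the iKD2 Dox- libraries was the widest between same-group libraries of any member. The 2 counts behind it were 579 (95% Poisson interval 533 to 628) and 117 (96.8 to 140). The log2 fold changes of iKD2 Dox+ were 0.26 (SE 0.83) against iKD2 Dox- and -0.12 (SE 0.82) against iSCR Dox+, and neither passed the test (edgeR, adjusted p = 1 and 0.994). These intervals, 0.362-fold to 3.94-fold and 0.282-fold to 3.01-fold, were the widest among the members.

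The balance of the catalytic pair was read within each library, as the log2 ratio of METTL14 to METTL3. It was -0.41, 0.47 and 0.93 in the iKD2 Dox+ libraries, 0.47 and 1.68 in the iKD2 Dox- pair, and 1.38 and 0.03 in the iSCR Dox+ pair. METTL3 exceeded METTL14 in CPM in iKD2 Dox+ a alone, and the ratio ranged 4.24-fold over the libraries. The mean was 0.74 lower in iKD2 Dox+ than in iKD2 Dox- (exact permutation test, two-sided, p = 0.5, adjusted p = 0.857 over 9 ratio comparisons) and 0.37 lower than in iSCR Dox+ (exact permutation p = 0.6). The first difference was -0.14 without iKD2 Dox- c, -0.38 without iKD2 Dox+ a and -1.35 without iKD2 Dox- b. With 3 libraries against 2 such a test cannot give a p below 0.1, and with 2 against 2 not below 0.33.

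Among the adaptors, WTAP (ENSG00000146457, chromosome 6, 159725585 to 159756319, plus strand) links the catalytic pair to the other subunits and brings it to nuclear speckles. Its level was 55.2, 93.5 and 62.3 CPM in the iKD2 Dox+ libraries, 120 and 48.6 CPM in the iKD2 Dox- pair, and 67.2 and 49.1 CPM in the iSCR Dox+ pair. The highest and the lowest library of the 7 thus both belonged to iKD2 Dox-. The log2 fold change of iKD2 Dox+ was -0.26 (SE 0.42) against iKD2 Dox- and 0.27 (SE 0.42) against iSCR Dox+ (edgeR, adjusted p = 1 and 0.937). Of the 31-base stretches of WTAP transcripts, 10.4% also occurred in other genes when strand was ignored, the largest part of them in SOD2 on the opposite strand. The library iKD2 Dox+ a also held 293 counts of the pseudogene WTAPP1, which had 0 to 5 counts elsewhere.

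VIRMA (ENSG00000164944), the large scaffold of the complex that also directs methylation towards the end of the coding sequence, varied most in fold among the members. Its levels were 67.3, 40.9 and 101 CPM in the iKD2 Dox+ libraries, 45.6 and 67.1 CPM in the iKD2 Dox- pair, and 14.4 and 53.7 CPM in the iSCR Dox+ pair. The highest and lowest libraries differed 7.02-fold. The iSCR Dox+ b value lay inside the range of iKD2 Dox+, while iSCR Dox+ a lay far below every other library. The log2 fold change of iKD2 Dox+ against iSCR Dox+ was 1.03 (SE 0.54, edgeR, adjusted p = 0.699), the largest rise fitted for a member in any comparison. It was 0.38 without iSCR Dox+ a and 2.28 without iSCR Dox+ b. In each of these fits 1 library stands for iSCR Dox+ and is assumed to vary like the other groups. Against iKD2 Dox- it was 0.31 (SE 0.52, adjusted p = 1).

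ZC3H13 (ENSG00000123200, chromosome 13, 45954465 to 46052759, minus strand), which holds the complex in the nucleus, was the most abundant member in CPM. It was at 232, 205 and 175 CPM in the iKD2 Dox+ libraries, at 203 and 232 CPM in the iKD2 Dox- pair, and at 149 and 313 CPM in the iSCR Dox+ pair. The iKD2 libraries lay close together, and the iSCR Dox+ pair held both extremes. Its 95% interval against iKD2 Dox-, 0.627-fold to 1.4-fold, was the narrowest of the 10 in that comparison (log2 fold change -0.09, SE 0.28, edgeR, adjusted p = 1). Against iSCR Dox+ the log2 fold change was -0.18 (SE 0.28, adjusted p = 0.937).

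RBM15 and RBM15B are related RNA-binding proteins that take the complex to its target transcripts. RBM15 (ENSG00000162775, chromosome 1, 110338506 to 110346681, plus strand) was at 17.8, 41.9 and 64.7 CPM in the iKD2 Dox+ libraries, at 28.1 and 41.4 CPM in the iKD2 Dox- pair, and at 45.0 and 111 CPM in the iSCR Dox+ pair. The iSCR Dox+ libraries both exceeded the iKD2 Dox- pair, whereas iKD2 Dox+ overlapped with each. Its log2 fold change was 0.26 (SE 0.54) between iKD2 Dox+ and iKD2 Dox-, -0.91 (SE 0.53) between iKD2 Dox+ and iSCR Dox+ and -1.17 (SE 0.59) between iKD2 Dox- and iSCR Dox+. None of the 3 passed the test (edgeR, adjusted p = 1, 0.699 and 0.826), and without iSCR Dox+ b, its highest library, the last 2 were -0.12 and -0.37.

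RBM15B (ENSG00000259956, chromosome 3, 51391268 to 51397908, plus strand) varied least among the members. It was at 227, 121 and 156 CPM in the iKD2 Dox+ libraries, at 132 and 152 CPM in the iKD2 Dox- pair, and at 146 and 152 CPM in the iSCR Dox+ pair. The levels spanned 1.87-fold, with the highest and the lowest library both in iKD2 Dox+. Its log2 fold changes were 0.24 (SE 0.29), 0.18 (SE 0.29) and -0.06 (SE 0.31) in the 3 comparisons (edgeR, adjusted p = 1, 0.940 and 1). The gene overlaps DCAF1 on the opposite strand, and 19.2% of its 31-base stretches occur there in reverse. RBM15 and RBM15B shared 0 stretches of 31 bases on the same strand, a count that does not cover reverse complements. The log2 ratio of RBM15 to RBM15B was -3.60, -1.51 and -1.26 in the iKD2 Dox+ libraries, -2.20 and -1.85 in the iKD2 Dox- pair, and -1.68 and -0.45 in the iSCR Dox+ pair. The 2 paralogs thus shifted against each other by 8.87-fold over the libraries, and group means differed by -0.10, -1.06 and -0.96 in the 3 comparisons (exact permutation p = 1, 0.6 and 0.33).

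CBLL1 (ENSG00000105879, chromosome 7, 107743697 to 107761667, plus strand), a RING-finger protein also known as HAKAI, was at 21.7, 47.1 and 29.9 CPM in the iKD2 Dox+ libraries. It was at 20.1 and 41.2 CPM in the iKD2 Dox- pair, and at 40.2 and 44.5 CPM in the iSCR Dox+ pair. The 2 iSCR Dox+ libraries were alike, and each iKD2 group held libraries near 20 CPM and above 40 CPM. The log2 fold changes were 0.10 (SE 0.57), -0.37 (SE 0.57) and -0.47 (SE 0.62) in the 3 comparisons (edgeR, adjusted p = 1, 0.937 and 0.991). The last became -0.040 when iKD2 Dox- b was left out and -1.07 when c was left out, and that against iSCR Dox+ with induction was -0.14 without iKD2 Dox+ a and -0.72 without iKD2 Dox+ b.

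The erasers came next. FTO (ENSG00000140718, chromosome 16, 53701692 to 54158512, plus strand), which also acts on the cap-adjacent methylated adenosine, was at 130, 74.5 and 83.4 CPM in the iKD2 Dox+ libraries, at 90.2 and 67.9 CPM in the iKD2 Dox- pair, and at 38.2 and 99.0 CPM in the iSCR Dox+ pair. Only iSCR Dox+ a lay outside the range of the iKD2 libraries. The log2 fold changes were 0.28 (SE 0.40), 0.48 (SE 0.41) and 0.20 (SE 0.44) in the 3 comparisons (edgeR, adjusted p = 1, 0.792 and 1). The gene has 23 annotated transcripts and its counts were fractional in all 7 libraries, as happens where reads are divided between genes.

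ALKBH5 (ENSG00000091542, chromosome 17, 18183078 to 18209954, plus strand) was at 235, 162 and 147 CPM in the iKD2 Dox+ libraries, at 204 and 246 CPM in the iKD2 Dox- pair, and at 74.4 and 185 CPM in the iSCR Dox+ pair. Both iKD2 Dox- libraries lay above both iSCR Dox+ libraries, and iKD2 Dox+ overlapped with each. The log2 fold change between iKD2 Dox- and iSCR Dox+ was 0.79 (SE 0.36, edgeR, unadjusted p = 0.0392, adjusted p = 0.826). It was 0.28 without iSCR Dox+ a and 1.60 without iSCR Dox+ b. In each of these fits 1 library stands for iSCR Dox+, with no spread of its own. Between iKD2 Dox+ and iSCR Dox+ the log2 fold change was 0.48 (SE 0.33, adjusted p = 0.714). It was -0.03 without iSCR Dox+ a and 1.28 without iSCR Dox+ b, with the same limit. Between iKD2 Dox+ and iKD2 Dox- it was -0.31 (SE 0.32, adjusted p = 1). The size of the difference from iSCR Dox+, and for iKD2 Dox+ also its sign, thus rested on which of the 2 iSCR Dox+ libraries was used.

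The ratio of the 2 erasers had the narrowest range of the 3 ratios. The log2 ratio of FTO to ALKBH5 was -0.85, -1.11 and -0.81 in the iKD2 Dox+ libraries, -1.17 and -1.84 in the iKD2 Dox- pair, and -0.94 and -0.90 in the iSCR Dox+ pair. The ratio ranged 2.05-fold over the libraries, and its 3 values in iKD2 Dox+ exceeded those of the iKD2 Dox- pair. That difference of 0.58 gave the smallest p that 3 against 2 libraries can give (exact permutation test, two-sided, p = 0.1, adjusted p = 0.857 over 9 comparisons). It was 0.24 without iKD2 Dox- c and 0.92 without iKD2 Dox- b.

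Over all members, no group difference passed the test. Between iKD2 Dox+ and iKD2 Dox-, 0 of 10 members had an adjusted p under 0.05 (edgeR quasi-likelihood test), where 0.0393% of all genes tested did. Members at an unadjusted p under 0.05 also numbered 0, against 3.72% of all genes. There were 6 positive and 4 negative log2 fold changes, from -0.31 for ALKBH5 to 0.31 for VIRMA, with a median of 0.17 beside 0.01 over all genes. The groups overlapped for each of the 10, where they did not overlap for 20.3% of genes.

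Between iKD2 Dox+ and iSCR Dox+, 0 of 10 members passed (background 0.0262%), and 0 had an unadjusted p under 0.05 (background 6.72%). There were 5 positive and 5 negative values, from -0.91 for RBM15 to 1.03 for VIRMA, with a median of 0.03 beside 0.08 over all genes, and 0 of 10 had groups that did not overlap (background 20.6%). Between iKD2 Dox- and iSCR Dox+, which asks how the lines differ without the hairpin's induction but with Dox in only one of them, 0 of 10 passed (background 0.0131%) and 1, ALKBH5, had an unadjusted p under 0.05 (background 4.45%). Values were positive for 4 members and negative for 6, from -1.17 for RBM15 to 0.79 for ALKBH5, with a median of -0.08 beside 0.04 over all genes. There ALKBH5 and RBM15 had groups that did not overlap, 2 of 10, where 33.2% of genes did so. The 3 comparisons share libraries with each other and are not independent. DESeq2 and limma voom also called 0 members in each comparison, while DESeq2 called 219, 809 and 492 of all genes.

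**Figure D2:**
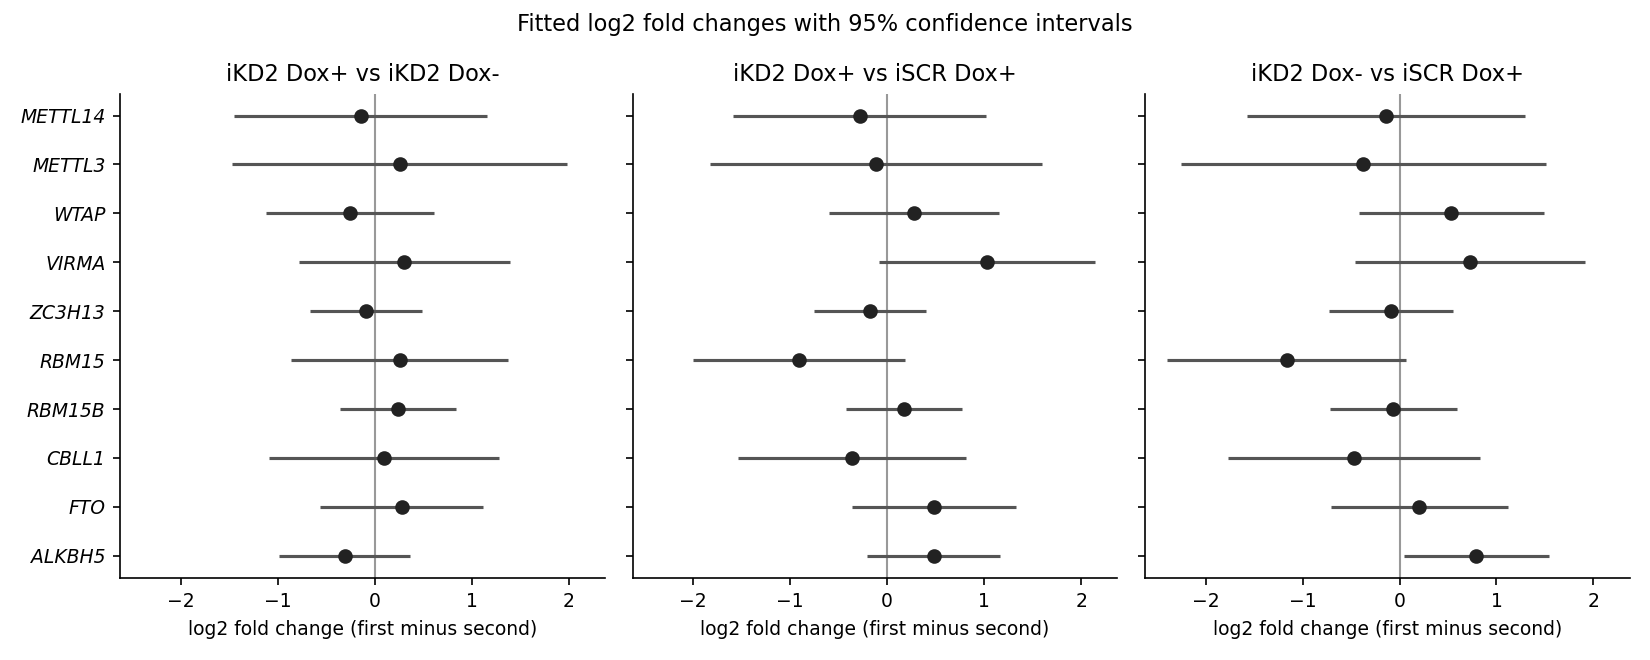
Fitted log2 fold changes (horizontal axis, first group minus second) of the 10 members in the 3 comparisons, with 95% confidence intervals from the edgeR fit as lines. The intervals cross 0 for every member except ALKBH5 between iKD2 Dox- and iSCR Dox+ (0.04 to 1.54), which did not pass the adjusted threshold.

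The spread between replicates was then described. Of 50 same-group pairs of values (10 members in 5 pairs of libraries), 44 had 95% Poisson intervals that lay apart, and 17 differed 2-fold or more, with a median of 1.55-fold and a range from 1.01 to 4.43. The pooled SD within groups on the log2 scale was 0.93 for METTL3, 0.81 for VIRMA and RBM15 and 0.65 for METTL14, down to 0.41 for ZC3H13 and 0.33 for RBM15B. Its median over the members was 0.57, beside 0.49 for the 7965 genes tested with a mean CPM in the same range. PCR copies are not independent molecules, and these intervals cover counting error only.

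It was then asked whether the partners followed METTL14 from library to library. Pearson's r of log2(CPM + 1) over the 7 libraries was highest for METTL3 (r = 0.46, exact permutation p = 0.289, Spearman's rho = 0.54, exact permutation p = 0.236) and RBM15 (r = 0.42, exact permutation p = 0.352, rho = 0.36, exact permutation p = 0.444). It was lowest for ALKBH5 (r = -0.40, exact permutation p = 0.407, rho = -0.39, exact permutation p = 0.396) and ZC3H13 (r = -0.34, exact permutation p = 0.474, rho = -0.57, exact permutation p = 0.2). For WTAP, VIRMA, RBM15B, CBLL1 and FTO r lay between -0.24 and 0.10. Adjusted p-values over the 9 partners were 0.929 or more for r and 0.707 or more for rho, so that 0 of 9 passed. At an unadjusted p of rho under 0.05 there were 0 of 9 as well, where 3.33% of the 22925 other genes tested had one.

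Leaving out the 2 libraries farthest from the METTL14 median on this log2 scale, iKD2 Dox+ b and a, changed r for METTL3 to 0.73, for RBM15 to 0.054, for WTAP to 0.50, for CBLL1 to -0.56 and for FTO to 0.13. After the group means had been removed, r was 0.53 for METTL3 and 0.35 for RBM15, given without a test. In the library labelled iKD2 Dox+ c, where METTL14 was highest, VIRMA was also the highest of the 7, while ALKBH5 and ZC3H13 were below their medians. In iKD2 Dox+ b, where METTL14 was lowest, METTL3 was 1.05 below its median on the log2 scale and CBLL1 was the highest of the 7.

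**Figure D3:**
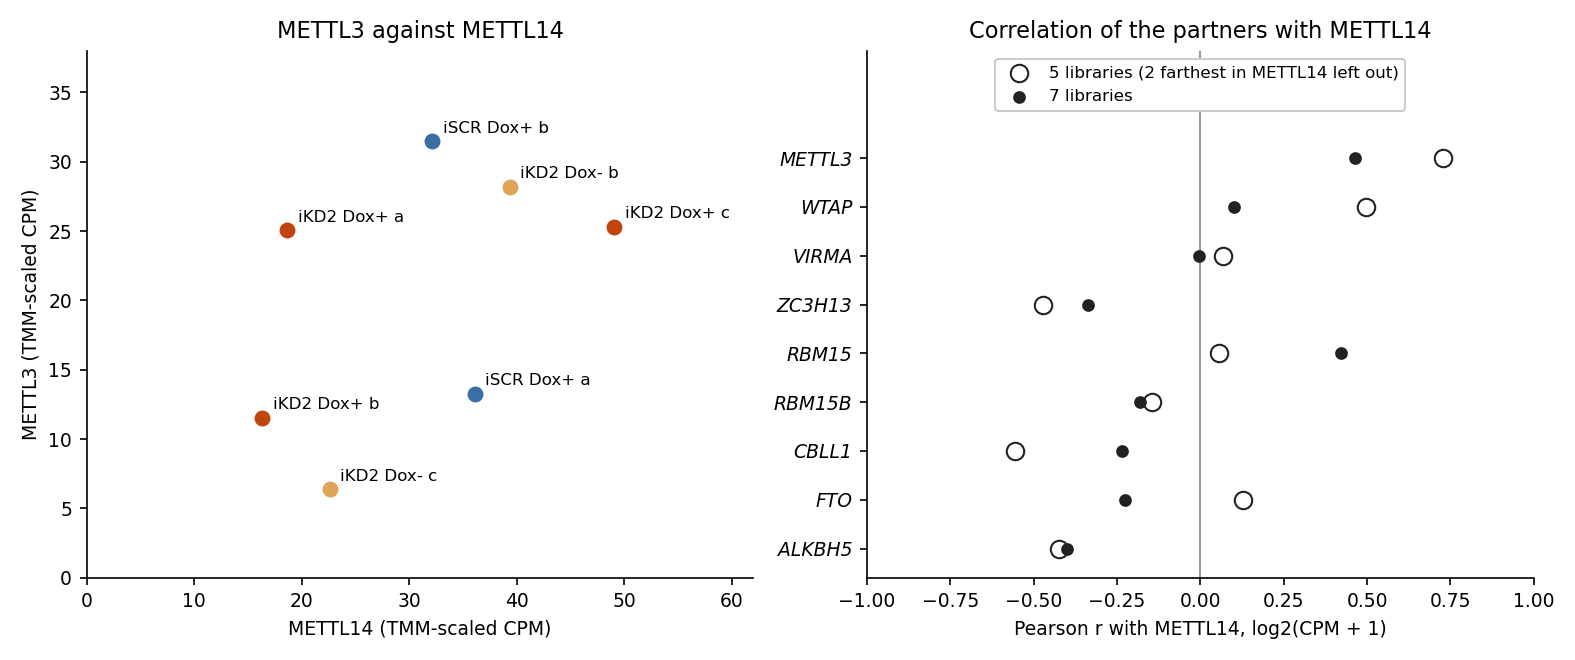
Left, METTL3 against METTL14 in TMM-scaled CPM, 1 point per library. Right, Pearson r of each partner with METTL14 on log2(CPM + 1) over 7 libraries (filled) and over the 5 left without iKD2 Dox+ a and b, the libraries farthest from the METTL14 median on that scale (open). With 7 libraries r runs from -0.40 (ALKBH5) to 0.46 (METTL3), and for METTL3 and RBM15 it moves to 0.73 and 0.054 with 5.

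Among all 45 pairs of members, r was positive for 24 and negative for 21, with a median of 0.06. The highest was between the erasers FTO and ALKBH5 (r = 0.80, exact permutation p = 0.0498, adjusted p = 0.756 over 45 pairs, rho = 0.39, exact permutation p = 0.396). It was -0.29 without the 2 libraries farthest from the FTO median, so that it rested on those libraries. The lowest was between WTAP and RBM15B (r = -0.59, exact permutation p = 0.167, rho = -0.68, exact permutation p = 0.110). By library, the members lay below their own median most often in iSCR Dox+ a and iKD2 Dox+ b (6 of 10 each) and least often in iSCR Dox+ b (1 of 10).

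**Figure D4:**
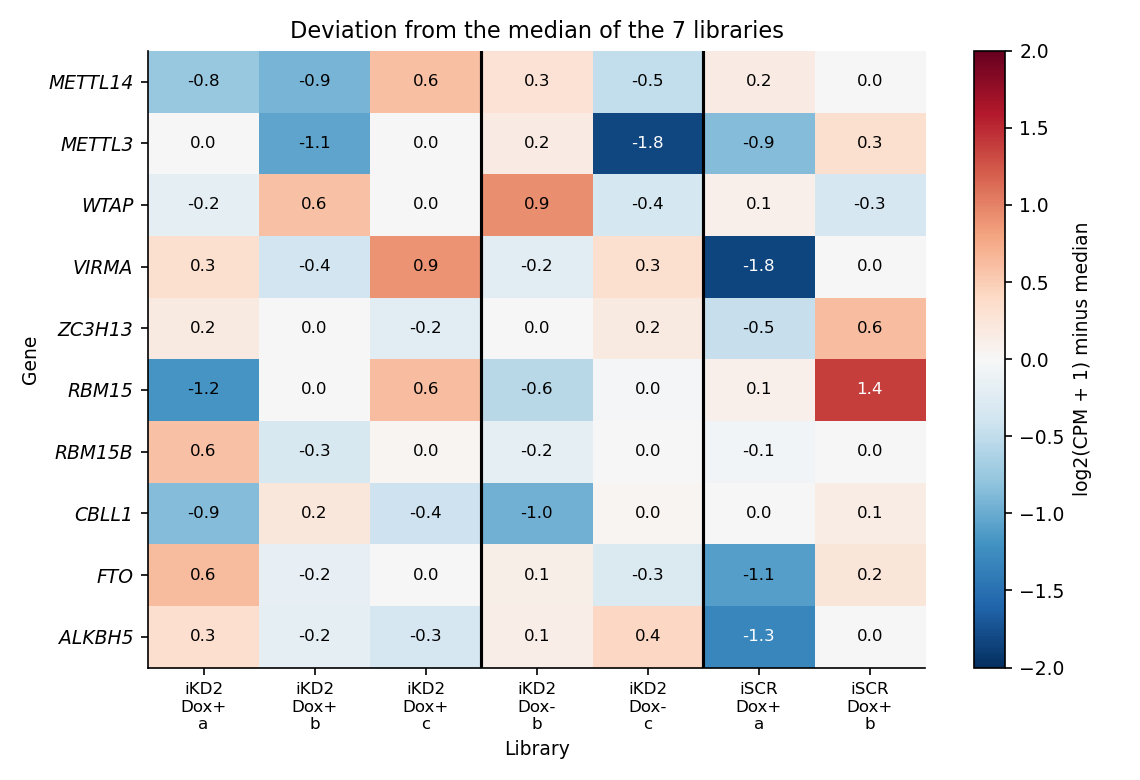
Log2(CPM + 1) of each member (rows) in each library (columns) minus the median of that member over the 7 libraries, with the value in each cell and the 3 groups set apart by vertical lines. The deepest values are those of VIRMA in iSCR Dox+ a (-1.83) and METTL3 in iKD2 Dox- c (-1.82), and the highest is RBM15 in iSCR Dox+ b (1.38).

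The 3 genes with the METTL14 pattern most alike over the 7 libraries, among 11748 genes with a mean of at least 10 CPM that were not members, were ARMH4 (Pearson r = 0.98), MUC3A (r = 0.98) and ETNK2 (r = 0.96). ARMH4 was at 15.8, 12.7 and 52.2 CPM in the iKD2 Dox+ libraries, at 30.4 and 16.5 CPM in the iKD2 Dox- pair, and at 30.1 and 30.1 CPM in the iSCR Dox+ pair. MUC3A ran from 153 CPM in iKD2 Dox+ b to 269 CPM in the library labelled iKD2 Dox+ c. They were chosen for this likeness, and no test applies to it.

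To compare levels between genes, CPM were divided by gene length in kb. With the median protein-coding transcript of GENCODE 29 as the length, the order was ALKBH5 (82.3 ± 26.9 CPM per kb, SD, n = 7), ZC3H13 (60.6 ± 14.7), FTO (45.0 ± 15.3), WTAP (43.6 ± 16.3), METTL14 (33.0 ± 12.9), RBM15B (23.4 ± 5.11), CBLL1 (19.9 ± 6.29), METTL3 (15.7 ± 7.47), RBM15 (14.8 ± 9.07) and VIRMA (10.7 ± 5.14). The mean difference between neighbours in this order exceeded its SD over libraries only for ZC3H13 and FTO (15.6 ± 13.9 CPM per kb). For ALKBH5 and ZC3H13 it was close to its SD (21.7 ± 21.8). This SD describes the spread of libraries and not the error of the mean, and the differences were not tested. ALKBH5 was the highest member per length in 5 of 7 libraries with this length, and in 7 of 7 with the union of exons or with the transcript that has the longest coding sequence.

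The places of the other members changed with the length used. METTL14 came after 4 other members at 33.0 CPM per kb on its median coding transcript of 927 bases, and was the last of the 10 at 4.59 CPM per kb on the 6669 bases of the transcript with its longest coding sequence. The median lengths of METTL14 and METTL3 (927 and 1289 bases) are too short to encode their 456 and 580 residues. Their levels per kb with that length thus rest on short annotated transcripts. FTO was at 45.0, 28.8 and 3.90 CPM per kb with the median transcript, the longest coding sequence and the union of exons. METTL3 was at 15.7, 10.0 and 3.42 CPM per kb in the same order, so that METTL14 lay above METTL3 per length with the first and the third choice and below it with the second.

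**Figure D5:**
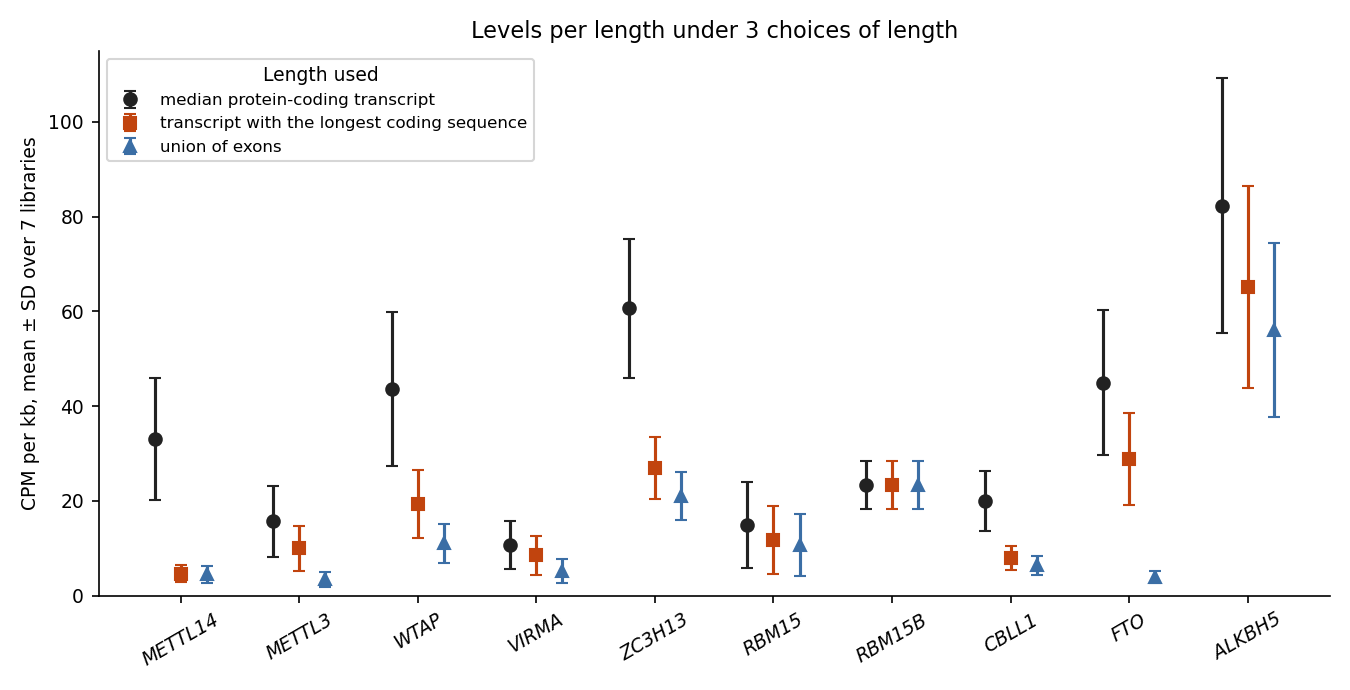
CPM per kb of each member (mean ± SD over 7 libraries) with 3 choices of gene length: the median protein-coding transcript, the transcript with the longest coding sequence and the union of exons. ALKBH5 has the highest mean with each choice (82.3, 65.1 and 56.1), while METTL14 (33.0, 4.59 and 4.46) and FTO (45.0, 28.8 and 3.90) change place.

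Other genes of the pathway were examined by lists. The first held 8 other RNA methylation enzymes (METTL16, METTL5 and its activator TRMT112, ZCCHC4, PCIF1, METTL4, ALKBH1 and ALKBH3). Of these, 0 passed in either direction in any of the 3 comparisons (edgeR, background 0.0393%, 0.0262% and 0.0131%). At an unadjusted p under 0.05 there were also 0 in each (background 3.72%, 6.72% and 4.45%). Their median log2 fold changes were 0.07, -0.43 and -0.96, beside 0.01, 0.08 and 0.04 over all genes. Without overlap of the groups, 1 of the 8 was higher between the iKD2 groups and 0 differed between iKD2 Dox+ and iSCR Dox+ (background 20.3% and 20.6%). For iKD2 Dox- against iSCR Dox+, 1 was higher and 3 were lower without overlap (background 33.2%). The value of METTL5, which methylates 18S ribosomal RNA, was -1.44 (SE 0.73, adjusted p = 0.699) between iKD2 Dox+ and iSCR Dox+, where iSCR Dox+ a held 64.0 CPM and every other library 9.38 to 19.9 CPM. METTL4 was likewise at 38.2 CPM in iSCR Dox+ a and at 2.23 to 14.4 CPM elsewhere. METTL16, which methylates the U6 small nuclear RNA and hairpins of the MAT2A mRNA, was at 74.0, 31.3 and 9.06 CPM in the iKD2 Dox+ libraries, values that enclosed those of all 4 other libraries.

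Of 4 genes of the S-adenosylmethionine cycle (MAT2A, MAT2B, AHCY and MTR), which supplies the methyl donor, 0 passed in any comparison (background 0.0393%, 0.0262% and 0.0131%). There was 1, MTR, with an unadjusted p under 0.05 between iKD2 Dox+ and iKD2 Dox- (background 3.72%). MTR, the methionine synthase, was at 65.6, 81.2 and 82.6 CPM in the iKD2 Dox+ libraries and at 95.2 and 162 CPM in the iKD2 Dox- pair, which gave a log2 value of -0.75 (SE 0.32, edgeR, unadjusted p = 0.0299, adjusted p = 1). MAT2A, which makes the donor, was at 62.9, 66.6 and 69.4 CPM in iKD2 Dox+ and at 51.6 and 46.8 CPM in iKD2 Dox-, and its fitted log2 difference was 0.43 (SE 0.45, adjusted p = 1). In iSCR Dox+ a and b MAT2A stood at 32.2 and 102 CPM, below and above all iKD2 libraries. AHCY was at 56.6, 76.7 and 86.4 CPM in iKD2 Dox+, at 104 and 110 CPM in iKD2 Dox- and at 70.1 and 65.3 CPM in iSCR Dox+. Between the iKD2 groups 1 of the 4 genes was higher (MAT2A) and 2 were lower (AHCY and MTR) without overlap (background 20.3%). Against iSCR Dox+ the groups did not overlap for MTR in iKD2 Dox+ (background 20.6%) and for AHCY in iKD2 Dox- (background 33.2%).

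Of 13 m6A readers, 0 passed in either direction in any of the 3 comparisons (edgeR, background 0.0393%, 0.0262% and 0.0131%). At an unadjusted p under 0.05 there were 0, 1 and 1 of 13 (background 3.72%, 6.72% and 4.45%), and the gene was YTHDF2 both times, named here after its values had been seen. YTHDF2, a cytoplasmic reader that promotes decay of methylated mRNA, was at 95, 114 and 91.2 CPM in the iKD2 Dox+ libraries, at 98.0 and 127 CPM in the iKD2 Dox- pair, and at 56.7 and 48.6 CPM in the iSCR Dox+ pair. All 5 iKD2 values exceeded the iSCR Dox+ pair. Groups did not overlap for 4 of 13 readers between iKD2 Dox+ and iSCR Dox+ and for 5 of 13 between iKD2 Dox- and iSCR Dox+, where 20.6% and 33.2% of all genes did so. Between iKD2 Dox+ and iKD2 Dox- 3 readers were higher and 1 was lower without overlap (background 20.3%). The log2 fold change of YTHDF2 was 0.92 (SE 0.33, unadjusted p = 0.0114, adjusted p = 0.655) for iKD2 Dox+ and 1.10 (SE 0.36, unadjusted p = 0.0060, adjusted p = 0.826) for iKD2 Dox- against iSCR Dox+, and -0.17 (SE 0.32, adjusted p = 1) between the 2 iKD2 groups.

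The highest reader between the iKD2 groups was YTHDC2, at 0.96 (SE 0.59, adjusted p = 1), and the lowest was PRRC2A, at -0.66 (SE 1.97, adjusted p = 1). PRRC2A was also the highest against iSCR Dox+, at 5.52 (SE 2.65, adjusted p = 0.699) and 6.18 (SE 2.78, adjusted p = 0.826). It was at 3.19, 103 and 1.15 CPM in the iKD2 Dox+ libraries, at 33.1 and 79.9 CPM in the iKD2 Dox- pair, and at 0.279 and 1.25 CPM in the iSCR Dox+ pair, so that 3 libraries carried it. The lowest readers against iSCR Dox+ were HNRNPC for iKD2 Dox+ (-0.17, SE 0.22, adjusted p = 0.918) and IGF2BP2 for iKD2 Dox- (-0.34, SE 0.27, adjusted p = 0.855).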

How the data were processed

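RNA-seq of 7 libraries was analysed from 1 table. The authors had trimmed the reads with fastp, quantified them with Kallisto and summed them with tximport, and the estimated counts they deposited are not scaled for depth. Versions of these tools, the build, the annotation and the strand option were not given in the sources used here, and the library kit marks strand. Kallisto divides reads that fit several genes, so that counts need not be whole. Groups were taken from the labels.

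Rounded counts of the 22926 genes that filterByExpr kept by group entered edgeR 4.0.16 in R 4.3.3, with TMM scaling and a robust quasi-likelihood fit of all 3 groups without covariates. P-values were adjusted by Benjamini-Hochberg over all genes tested and called at 0.05. Standard errors and 95% intervals are those of this fit. Levels are TMM-scaled CPM, correlations and ratios use a pseudocount of 1 CPM, and permutations of libraries were enumerated in full with two-sided p-values. Positions and lengths are from GENCODE 29 on GRCh38 by gene ID. The fit was tested on simulated data.

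Genes named are the 10 members, 2 lists of related enzymes in full, readers that passed or else the highest and lowest of each comparison, and the 3 genes most like METTL14. YTHDF2 was named after its values had been seen. The members and lists were chosen with earlier results of these data known. Alternatives were other scaling, filters, tools (DESeq2 1.42.0, limma 3.58.1), fits of the compared groups, a replicate block, pseudocounts of 0.1 and 5, other gene lengths, and each library left out. The longest coding transcript as a length and the 45 pairs of members were chosen after seeing the data.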

Additional observations from a re-analysis of the deposited data

How the results depend on the processing

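The number of members called was 0 in each of the 3 comparisons under all alternatives of scaling, filter, tool, samples in the fit and replicate block. With each library left out it stayed 0 between iKD2 Dox+ and iKD2 Dox-. Against iSCR Dox+ it stayed 0 in every such fit but that without iSCR Dox+ b. There VIRMA and ALKBH5 (iKD2 Dox+) and ALKBH5 (iKD2 Dox-) were called. That fit has 1 library in iSCR Dox+, with no spread of its own, and also called many other genes. Its calls are therefore not read as a result, and their cause was not tested. The count of partners correlated with METTL14 was 0 under every alternative. Some signs turned in values that did not pass the test. With a library left out, 29 log2 fold changes were reversed, while most, 178, kept their sign. The ranges that follow are those of values that turned. With each library left out, log2 fold changes between iKD2 Dox+ and iKD2 Dox- ran from -0.83 to 0.30 for METTL14, -0.45 to 1.69 for METTL3, -0.77 to 0.53 for WTAP, -0.065 to 0.61 for VIRMA, -0.20 to 0.0014 for ZC3H13, -0.22 to 0.62 for RBM15, -0.039 to 0.42 for RBM15B, -0.33 to 0.70 for CBLL1 and -0.0031 to 0.49 for FTO. Between iKD2 Dox+ and iSCR Dox+ they ran from -0.61 to 0.64 for METTL3, -0.62 to 0.46 for ZC3H13, -0.10 to 0.36 for RBM15B, -0.046 to 1.33 for FTO and -0.032 to 1.28 for ALKBH5. Between iKD2 Dox- and iSCR Dox+ they ran from -0.60 to 0.21 for METTL14, -1.81 to 0.39 for METTL3, -0.26 to 1.04 for WTAP, -0.53 to 0.55 for ZC3H13, -0.16 to 0.033 for RBM15B and -0.32 to 1.05 for FTO. Pearson r with METTL14 ran from -0.26 to 0.49 for WTAP, -0.45 to 0.45 for VIRMA, -0.70 to 0.56 for RBM15B, -0.65 to 0.034 for CBLL1 and -0.33 to 0.051 for FTO, and that of VIRMA was 0.016 with a pseudocount of 5. Differences of the log2 ratio METTL14 to METTL3 ran from -1.05 to 0.30 between iKD2 Dox+ and iSCR Dox+ and from -0.31 to 1.04 between iKD2 Dox- and iSCR Dox+. Those of RBM15 to RBM15B ran from -0.53 to 0.64 between the iKD2 groups, and those of FTO to ALKBH5 from -0.058 to 0.090 between iKD2 Dox+ and iSCR Dox+, where it was 0.0024 with a pseudocount of 0.1.

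Libraries of different groups share the letters a, b and c, and correlations of the deviations of same-letter libraries were between -0.02 and 0.01. Each such pair included a group of 2 libraries, whose deviations from their mean mirror each other. This check therefore cannot tell whether the letters mark shared cultures. With the letters as a replicate block, 0 members passed in each comparison and 76, 15 and 8 of all genes were called. Without the block the same groups and genes gave 13, 6 and 3, the first from a fit of the iKD2 groups alone, as its block was. Under the block RBM15B turned to -0.047 between the iKD2 groups and to 0.058 between iKD2 Dox- and iSCR Dox+, and METTL3 turned to 0.29 between iKD2 Dox+ and iSCR Dox+. Level per length moved by more than the SD over libraries in 12 of 20 values with other lengths. Each member had counts above 100 in every library, and the number of separate molecules behind them is unknown.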
